A study of Rattus norvegicus with 20 samples.

Results

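The integrated stress response genes Ddit3, Atf3, Nupr1, Trib3 and Asns were followed in epithelial cells of 5 rat tissues that were cultured, placed in mouse skin, and cultured again. Each gene was represented by the probe set whose only annotated symbol was that gene. Where a symbol had several, the brightest of them over the 20 arrays stood for the gene. All 5 genes were found, among 14506 named genes and 29215 probe sets in all.

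The cells came from footpad, oral mucosa, vagina, esophagus and trachea of transgenic rats that carry EGFP under an actin promoter (the green rat line, SDTgN (act-EGFP)obsCZ-004; age label PN200). They were grown on irradiated mouse 3T3-J2 feeder cells. The cells after transplantation had been injected into skin of newborn OF1 mice, which was then grafted on athymic mice, and they were recovered later and cultured again. The cells before transplantation were the same kind of culture that had not been through skin. At both stages the cells were sorted for EGFP, so that the green marker and the mouse feeder were common to all 10 groups. RNA from 2 cultures of each tissue and stage was hybridised to Rat Gene ST arrays, and all values below are log2 intensities summarised by the robust multi-array average (RMA). The duplicates were parallel cultures, and p-values therefore measured only the spread between such cultures. The array titles carry Roman numerals, which the study uses for passage number. These differed between the stages in every tissue other than vagina, and passage and transplantation cannot be told apart there.

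In the integrated stress response, kinases that sense amino acid shortage, misfolded protein in the endoplasmic reticulum, double-stranded RNA or haem shortage phosphorylate the translation factor eIF2alpha. General translation then slows while translation of the transcription factor ATF4 is favoured, and ATF4 binds a composite C/EBP and ATF element in its target genes. Ddit3 encodes CHOP, a C/EBP-family factor associated with stress-induced cell death. Atf3 encodes a basic leucine zipper factor that is also an immediate early gene of many cells, induced by growth factors, injury and DNA damage. Nupr1 encodes a small chromatin-associated protein induced by many stresses. Trib3 encodes a pseudokinase that restrains ATF4 in a feedback loop, and Asns encodes asparagine synthetase, which makes asparagine from aspartate. In keratinocytes, both Atf3 and Ddit3 are known to be induced by ultraviolet light.

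The ATF4 element was looked for as the letters TGATGNAA on either strand (TTNCATCA on the opposite one) in the 250 bases before each annotated start in RefSeq, build GRCr8. These letters stood in 1139 of 33469 promoters (3.40%), in 14 of 55 promoters of the other genes of the pathway (25.5%), and in 2 of the 4 members that had a promoter in the table. The windows of Ddit3 and Asns did not hold them. Sequence outside the windows and other forms of the element were not searched, so a miss does not mean that a gene lacks the element. The stretches around the match in Nupr1 and Trib3 are printed because these members behaved differently in the cells. Chac1, another ATF4 target, is printed beside them because it was among the 3 genes most like Trib3 over the group means (Pearson's r 0.82). These were picked from 3386 genes for their likeness, and in footpad Chac1 changed by -0.16 and Trib3 by 0.26. Capitals mark the match, which begins 55, 21 and 167 bases before the start in Nupr1, Trib3 and Chac1. The stretches lie at chr1:190645923-190645982 (Nupr1, minus strand), chr3:161275534-161275580 (Trib3, minus strand) and chr3:126795938-126795997 (Chac1, plus strand), and each is written along the strand of its gene.
Nupr1: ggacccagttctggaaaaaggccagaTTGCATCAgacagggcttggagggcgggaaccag
Trib3: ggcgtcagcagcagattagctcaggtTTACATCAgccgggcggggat
Chac1: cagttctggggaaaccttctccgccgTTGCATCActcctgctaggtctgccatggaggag
The 3 matches are on the same strand relative to the gene. A match in the letters is not evidence of binding.

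The duplicates correlated at 0.991 to 0.996 over all probe sets, and the array medians lay between 5.31 and 5.55. The epithelial nature of the cultures was clear in all groups: the mean of 8 epithelial markers was 10.7 to 11.1 on each array, with Krt14 at 13.05 or higher in every group. Markers of the single tissues were less clear. Nkx2-1, listed for trachea, was highest there, at 6.67 after and 6.71 before, with 6.45 in oral mucosa after as the next group. Hoxd13, listed for vagina, was 6.58 in vagina after transplantation (adjusted p = 2.05e-06 for the change). It was 4.75 in vagina before, beside 4.79 in footpad before. Krt9, the keratin of palm and sole skin, averaged 5.22 in footpad after and 4.93 in footpad before transplantation, with 46.7% and 41.2% of all probe sets below it, close to its level in the other tissues. Krt4 and Krt13, keratins of internal stratified epithelia, changed with transplantation: Krt4 was 5.33 after and 11.96 before in oral mucosa and 6.90 after and 10.83 before in esophagus, and Krt13 was 6.32 after and 10.68 before in vagina. In footpad Krt13 went the other way, at 8.88 after and 6.40 before (2.48, adjusted p = 7.25e-08). Trachea was also higher after transplantation, with Krt13 at 10.86 after and 9.90 before and Krt4 at 9.08 after and 8.31 before, both under 2-fold. The part of these shifts in the changes of the stress genes was not tested. The means of lists of leukocyte (11 genes, 4.45 to 4.84), endothelial (8 genes, 4.41 to 4.77) and melanocyte markers (5 genes, 3.96 to 4.57) varied little between arrays, although single genes did not follow them. Mitf, a melanocyte factor, was 6.81 in footpad after and 4.94 before transplantation (1.87, adjusted p = 5.56e-07). Cd68, a macrophage gene, fell in oral mucosa (-1.96, adjusted p = 3.34e-06) and vagina (-1.07, adjusted p = 0.0011), and Cd14 lay between 8.60 and 9.79 in all groups. Epcam, an epithelial adhesion gene, was 10.76 in footpad after and 7.77 before (adjusted p = 6.62e-11). Most of the epithelial list did not go with Epcam in footpad. Of its 8 genes 1 passed the test, 3 had a positive change, and the median change was -0.37. A list of 12 fibroblast markers was not even across the groups. Its mean was 4.69 and 4.63 in footpad after and 6.20 and 6.15 before transplantation, and 9 of the 12 genes fell there, led by Dcn (decorin; -3.43). It was 4.77 and 4.69 after and 6.18 and 6.04 before in vagina (7 genes fell), and 4.78 and 4.72 after and 6.14 and 6.0 before in trachea (6 genes fell). In oral mucosa it was 5.03 and 5.0 after and 4.68 and 4.86 before, and in esophagus 4.77 and 4.79 after and 4.70 and 4.86 before. Since these are bulk cultures, fewer cells of a type and less RNA per cell cannot be told apart.

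A gene was taken to have risen or fallen when its limma p, adjusted by Benjamini-Hochberg over all 29215 probe sets, was under 0.05 and its fold over 2. By this rule 6.92% of all probe sets were called in footpad, 3.65% in oral mucosa, 2.21% in vagina, 1.07% in esophagus and 1.38% in trachea. Of the 5 stress response genes, 1 each passed it in oral mucosa, vagina and esophagus, and 0 in trachea. In footpad 3 changed by more than 2-fold, which is a description only, and nothing is read from it against the footpad share. In trachea 3 of the 5 had an adjusted p under the threshold without the fold. The share of all probe sets past that threshold alone is not given, so nothing is read from this count. The median change of the 5 genes was 2.38 in footpad, 0.26 in oral mucosa, 0.36 in vagina, 0.69 in esophagus and 0.66 in trachea. The median over all probe sets lay between -0.03 and 0.06. The genes were chosen by a pathway name and by their after and before values in footpad, where some of them had stood out in earlier results of the same data, so their footpad values are given as a description without a p. Levels of different genes are not compared with each other, because each probe set has its own response.

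**Figure D1:**
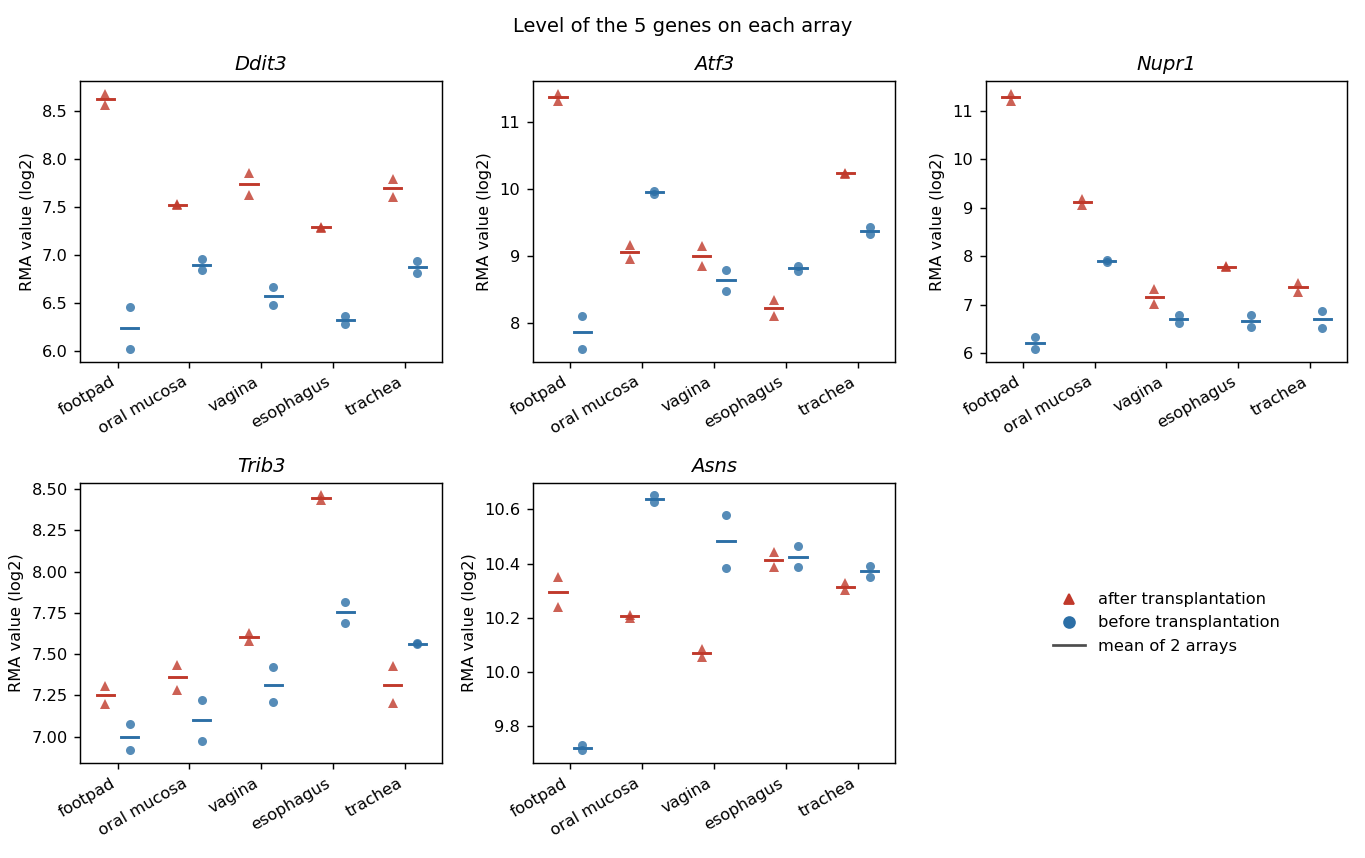
Log2 RMA level of each gene on every array, by tissue, with cells after transplantation as red triangles to the left of cells before transplantation as blue circles. Each point is 1 of 2 cultures; Ddit3 is higher after transplantation in all 5 tissues, while Atf3 and Nupr1 reach 11.2 or more in footpad after transplantation alone.

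Ddit3 was higher after transplantation in each of the 5 tissues, and its levels separated the stages across tissues. In footpad it read 8.56 and 8.68 after and 6.02 and 6.46 before transplantation. In vagina it was 7.62 and 7.86 after and 6.47 and 6.66 before. In esophagus it was 7.28 and 7.29 after and 6.36 and 6.28 before. Trachea and oral mucosa differed the same way. Trachea stood at 7.79 and 7.60 after against 6.93 and 6.80 before, and oral mucosa at 7.51 and 7.53 after against 6.96 and 6.84 before. The 10 arrays after transplantation spanned 7.28 to 8.68 with a median of 7.61, and the 10 arrays before spanned 6.02 to 6.96 with a median of 6.56. Without footpad, whose values chose the genes, the 8 arrays after spanned 7.28 to 7.86 and the 8 before 6.28 to 6.96. The lowest array after transplantation was thus above the highest one before, with footpad or without it. The share of all probe sets that separate the stages in this way was not counted, so the separation is a description.

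The size of the Ddit3 change was 2.38 ± 0.13 (SE) in footpad, 5.20-fold. It was 1.17 in vagina (2.26-fold, adjusted p = 2.88e-05), which passed the test. In esophagus (0.96, adjusted p = 0.000303), trachea (0.82, adjusted p = 0.000898) and oral mucosa (0.62, adjusted p = 0.00387) the adjusted p was under the threshold but the fold was under 2. Without the first esophagus culture before transplantation, the change there was 1.01 (adjusted p = 0.00284), past the fold. The fibroblast list was lower after transplantation in footpad, vagina and trachea and not in oral mucosa or esophagus, and its part in the Ddit3 changes was not tested. Before transplantation Ddit3 differed by 0.58 between the highest and lowest of the 4 tissues other than footpad (adjusted p = 0.0114), and after transplantation by 0.46 (adjusted p = 0.0533). In the order of the 10 group means, footpad after was first and footpad before was last, and the duplicates of 3 of the 9 neighbouring pairs overlapped: vagina after with trachea after, oral mucosa before with trachea before, and esophagus before with footpad before.

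Atf3 had no common direction. In footpad it stood at 11.32 and 11.42 after and 7.62 and 8.11 before transplantation, a change of 3.50 ± 0.16 (SE), 11.3-fold. In trachea it was 10.23 and 10.24 after and 9.44 and 9.33 before, 0.85 higher (adjusted p = 0.00211) without reaching the fold. In vagina it read 9.16 and 8.85 after and 8.80 and 8.49 before, and the change of 0.36 did not pass (adjusted p = 0.123). Both remaining tissues went the other way. Oral mucosa was at 8.96 and 9.16 after and 9.93 and 9.98 before (-0.89, adjusted p = 0.000818). Esophagus was at 8.11 and 8.34 after and 8.78 and 8.86 before (-0.59, adjusted p = 0.0216). The duplicates of the 2 stages did not overlap in any of the 5 tissues, with the cells after transplantation above in 3 tissues and below in 2. Footpad, whose values chose the genes, is among the 3, and so is vagina, where the change did not pass. How many of all probe sets separate in this way was not counted, so nothing is read from the count. In oral mucosa the call depended on the scaling: after centering the arrays by their medians the change was -1.03 (adjusted p = 0.000425), past the fold.

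Because Atf3 differed in direction between tissues, its response in each tissue was set against the mean response of the other 3 tissues, leaving footpad out. The response of oral mucosa was lower than that mean by 1.10 ± 0.18 (SE; a difference of -1.10, adjusted p = 0.000571), and the response of trachea was higher by 1.23 ± 0.18 (SE; adjusted p = 0.000284). These were the 2 differences of this kind, among 20 over the 5 genes and 4 tissues, that passed the test, where 3.81% of all probe sets passed for oral mucosa, 3.43% for trachea, 1.4% for vagina and 0.832% for esophagus. Atf3 in esophagus (-0.70, adjusted p = 0.0428) and Trib3 in trachea (-0.66, adjusted p = 0.00271) and esophagus (0.59, adjusted p = 0.019) were under 2-fold. Without the first oral mucosa culture after transplantation 1 of the 2 passed. The 4 differences per gene share arrays and are not separate pieces of evidence.

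The tissues already differed in Atf3 before transplantation. The level was 9.93 and 9.98 in oral mucosa, 9.44 and 9.33 in trachea, 8.78 and 8.86 in esophagus, and 8.80 and 8.49 in vagina, a range of 1.31 between group means (adjusted p = 6.34e-05). After transplantation the range over the same 4 tissues was 2.01 (adjusted p = 2.34e-06), and trachea was highest. Footpad cells held the lowest group mean before transplantation, 7.87 ± 0.35 (SD, n = 2), and the highest after it, 11.37 ± 0.07 (SD, n = 2). In the order of the 10 groups, oral mucosa after, vagina after, esophagus before and vagina before followed each other with overlapping duplicates, and the other neighbours were separate.

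Nupr1 had the widest range of the 5 genes. In footpad it read 11.21 and 11.36 after and 6.09 and 6.34 before transplantation, a change of 5.07 ± 0.14 (SE), 33.6-fold. In oral mucosa it was 9.18 and 9.07 after and 7.89 and 7.93 before, and it rose by 1.21 (adjusted p = 2.32e-05). In esophagus it was 7.79 and 7.78 after and 6.79 and 6.53 before, and it rose by 1.12 (adjusted p = 0.000159). The esophagus call rested on 1 array: without the second culture before transplantation the change was 0.99 (adjusted p = 0.00309), under 2-fold. Trachea read 7.27 and 7.44 after and 6.87 and 6.53 before (0.66, adjusted p = 0.0063). Vagina read 7.0 and 7.31 after and 6.62 and 6.79 before (0.45, adjusted p = 0.0377). As for Ddit3, both arrays after transplantation lay above both arrays before in 5 of 5 tissues. Footpad, whose values chose the genes, is among the 5. The share of all probe sets with this order was not counted, so nothing is read from it.

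Unlike Ddit3, Nupr1 did not separate the stages across tissues. Oral mucosa before transplantation (7.91 ± 0.03, SD, n = 2) was above esophagus, trachea and vagina after it. The 4 tissues other than footpad differed by 1.25 before (adjusted p = 1.95e-05) and by 1.97 after transplantation (adjusted p = 5.28e-07), with oral mucosa highest at both stages. Footpad was again first after transplantation and last before it. Vagina after overlapped with trachea after, and vagina, trachea and esophagus before could not be ordered beyond the spread of their duplicates.

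**Figure D2:**
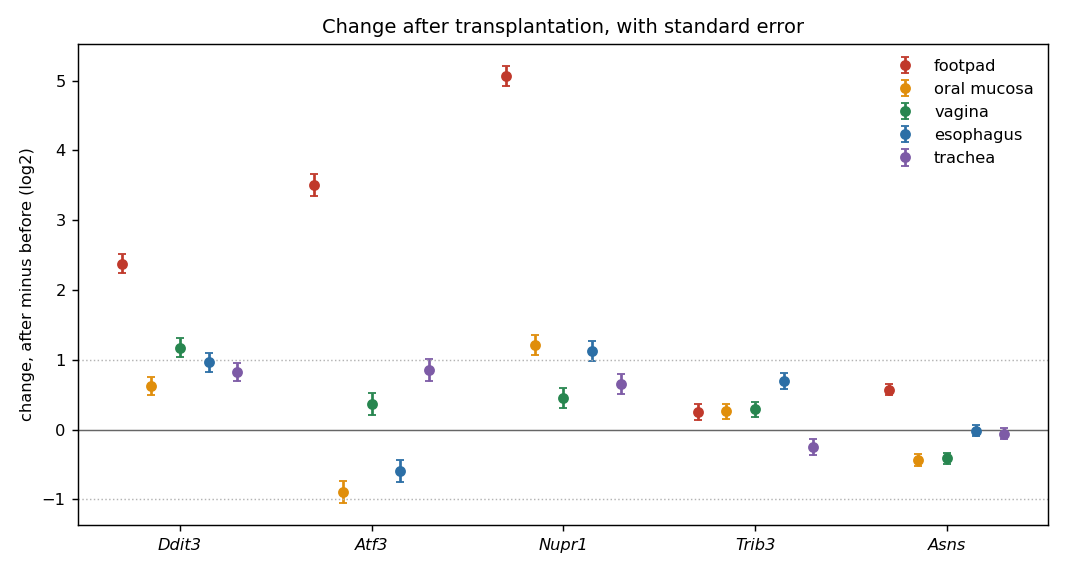
Change of each gene, after minus before transplantation, on the log2 scale, with the standard error of the fit, for footpad, oral mucosa, vagina, esophagus and trachea from left to right within a gene; dotted lines mark 2-fold. Footpad stands apart for Nupr1 (5.07), Atf3 (3.50) and Ddit3 (2.38), while its Trib3 change is 0.26.

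Trib3, the feedback inhibitor, had a small footpad change beside those of Ddit3, Atf3 and Nupr1. It was 7.31 and 7.20 in footpad after and 6.92 and 7.08 before transplantation, a change of 0.26 ± 0.11 (SE). In esophagus it was 8.46 and 8.43 after and 7.82 and 7.69 before, the highest levels of the gene in the series, and 0.69 higher after transplantation (adjusted p = 0.000996) without reaching 2-fold. In vagina (0.29, adjusted p = 0.0899), oral mucosa (0.26, adjusted p = 0.124) and trachea (-0.25, adjusted p = 0.183) the change did not pass. In trachea it read 7.43 and 7.20 after and 7.57 and 7.56 before, the tissue where both arrays after transplantation were the lower ones. The 4 tissues other than footpad differed by 1.13 after transplantation (adjusted p = 7.96e-06), past the test, and by 0.65 before it (adjusted p = 0.00239), under the fold. In the order of its 10 group means, esophagus after, esophagus before, vagina after, trachea before and oral mucosa after followed each other without overlap, and the duplicates of each neighbouring pair below these overlapped. By the F test over these 4 tissues, 7.02% of all probe sets were called after and 6.13% before transplantation. Of the 5 genes, Atf3, Nupr1 and Trib3 were called after, and Atf3 and Nupr1 before.

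Asns, the enzyme of the group, was the most even. Its 20 arrays lay between 9.71 and 10.65. In footpad it was 10.35 and 10.24 after and 9.71 and 9.73 before transplantation, a change of 0.57 ± 0.08 (SE). It was lower after transplantation in oral mucosa, at 10.20 and 10.21 against 10.63 and 10.65 before (-0.44, adjusted p = 0.00125), and in vagina, at 10.08 and 10.06 against 10.38 and 10.58 before (-0.41, adjusted p = 0.00234), both under 2-fold. In esophagus the duplicates of the stages overlapped (-0.01, adjusted p = 0.958), and in trachea the change was -0.06 (adjusted p = 0.739). In the order of the 10 means, oral mucosa before was first, and vagina before, esophagus before, esophagus after and trachea before overlapped one with the next. Footpad before transplantation was the lowest group, and footpad after was within the range of the other tissues after transplantation, 10.06 to 10.44.

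The response of footpad exceeded the mean response of the other 4 tissues by 4.21 for Nupr1, 3.57 for Atf3, 1.48 for Ddit3, 0.80 for Asns and 0.01 for Trib3. These are descriptions, since the same arrays brought the genes to attention. Over the 10 group means Ddit3 and Nupr1 correlated at 0.82, Ddit3 and Atf3 at 0.73, and Atf3 and Nupr1 at 0.72. Over the 8 groups without footpad the values were 0.52, 0.26 and 0.08. Atf3 and Trib3 correlated at -0.33 over 10 and at -0.71 over 8 groups, and Ddit3 and Asns at 0.03 and at -0.69.

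The other genes of the pathway were read from a list of 66, of which 65 were measured and Sesn2 was not found. The list was chosen with earlier results of these data known, and the footpad p-values of its genes carry that limit. In footpad 6 rose (9.23% of the list, where 4.28% of all probe sets were higher) and 3 fell (4.62%, where 2.64% of all were lower), with a median change of 0.10. The largest was Ddit4 (REDD1), a stress-induced inhibitor of mTORC1 signalling, at 11.76 and 11.80 after and 8.83 and 8.67 before transplantation. It rose by 3.03 ± 0.09 (SE; 8.17-fold, adjusted p = 4.51e-11), and its excess over the mean response of the other 4 tissues was 2.99 (adjusted p = 1.15e-10). Slc6a9, a glycine transporter, was 8.78 and 8.78 after and 6.84 and 7.06 before, and rose by 1.83 (adjusted p = 1.6e-08). Bcl2l11 (BIM), a BH3-only protein that promotes apoptosis, was 8.13 and 8.34 after and 6.49 and 6.49 before, and rose by 1.74 (adjusted p = 3.88e-07). Pmaip1 (NOXA), of the same class, rose by 1.24, Gpt2, a mitochondrial alanine transaminase, by 1.11, and Cebpb by 1.07.

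The 3 genes that fell in footpad were amino acid transporters, of 9 on the list. Slc1a5, a carrier of glutamine and other neutral amino acids, was 8.59 and 8.34 after and 9.73 and 9.78 before transplantation (-1.29, adjusted p = 8.08e-08). Slc7a5, the large neutral amino acid exchanger, changed by -1.18 and Slc7a1, which carries arginine and lysine, by -1.0. Slc7a11, the cystine carrier, did not pass (0.24, adjusted p = 0.458).

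The mRNA of ATF4 itself did not pass in any tissue. Atf4 read 10.67 and 10.57 in footpad after and 10.53 and 10.53 before transplantation (0.10, adjusted p = 0.466), and its changes in the other tissues lay between -0.14 and 0.20. ATF4 is set mainly by translation, which these arrays did not measure. Further genes commonly read as ATF4 targets did not pass in footpad. Chac1, a glutathione-degrading enzyme, changed by -0.16 (adjusted p = 0.379). Ppp1r15a (GADD34), the phosphatase subunit that ends the response, changed by 0.27 (adjusted p = 0.0179). Mthfd2, of mitochondrial folate metabolism, changed by -0.01 (adjusted p = 0.951), and 0 of 13 genes of tRNA charging and export passed, with a median of -0.30.

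The serine synthesis enzymes Phgdh (0.97), Psph (0.83) and Psat1 (0.51), and the 4 eIF2alpha kinases, Eif2ak3 or PERK (0.76), Eif2ak1 or HRI (0.66), Eif2ak2 or PKR (0.43) and Eif2ak4 or GCN2 (0.38), had positive changes in footpad, all with adjusted p under 0.05 and under 2-fold. These genes were picked after their values were seen. Of the 11 genes of amino acid and one-carbon synthesis, whose median was 0.16, Shmt2 (-0.50), Aldh18a1 (-0.48) and Aldh1l2 (-0.43) were lower and Pck2 (0.88) higher, also with adjusted p under 0.05 and under 2-fold. Against the mean response of the other 4 tissues, Phgdh (1.08), Eif2ak3 (1.03) and Eif2ak1 (1.03) passed the test. In that comparison 9 of the 65 genes were higher and 2 lower in footpad, where 8.23% of all probe sets passed, 5.42% higher and 2.81% lower.

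In the other 4 tissues few genes of the list passed. In oral mucosa 1 rose and 1 fell: Aldh1l2, a mitochondrial folate enzyme, read 6.55 and 6.45 after and 5.32 and 5.32 before transplantation (1.18, adjusted p = 3.7e-06), and Tnfrsf10b, a death receptor gene induced by CHOP in human cells, read 6.25 and 6.42 after and 7.66 and 7.24 before (-1.11, adjusted p = 0.000162). Tnfrsf10b also fell in trachea, with 7.11 and 7.30 after and 8.31 and 8.14 before (adjusted p = 0.000765). The count of lower genes was 0 in oral mucosa without its first culture before transplantation, and 0 in trachea without the first culture of either stage. No listed gene passed in vagina or esophagus. The higher share among all probe sets was 1.5% in oral mucosa, 0.534% in vagina, 0.517% in esophagus and 0.496% in trachea, and the lower share 2.15%, 1.68%, 0.558% and 0.883% in the same order. Ddit4 in trachea was 10.44 and 10.32 after and 9.79 and 9.69 before (0.64, adjusted p = 0.000328), under 2-fold, and in oral mucosa, vagina and esophagus it did not pass. Ppp1r15a was lower by 0.50 in vagina (a change of -0.50, adjusted p = 0.000513) and did not reach 2-fold.

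**Figure D3:**
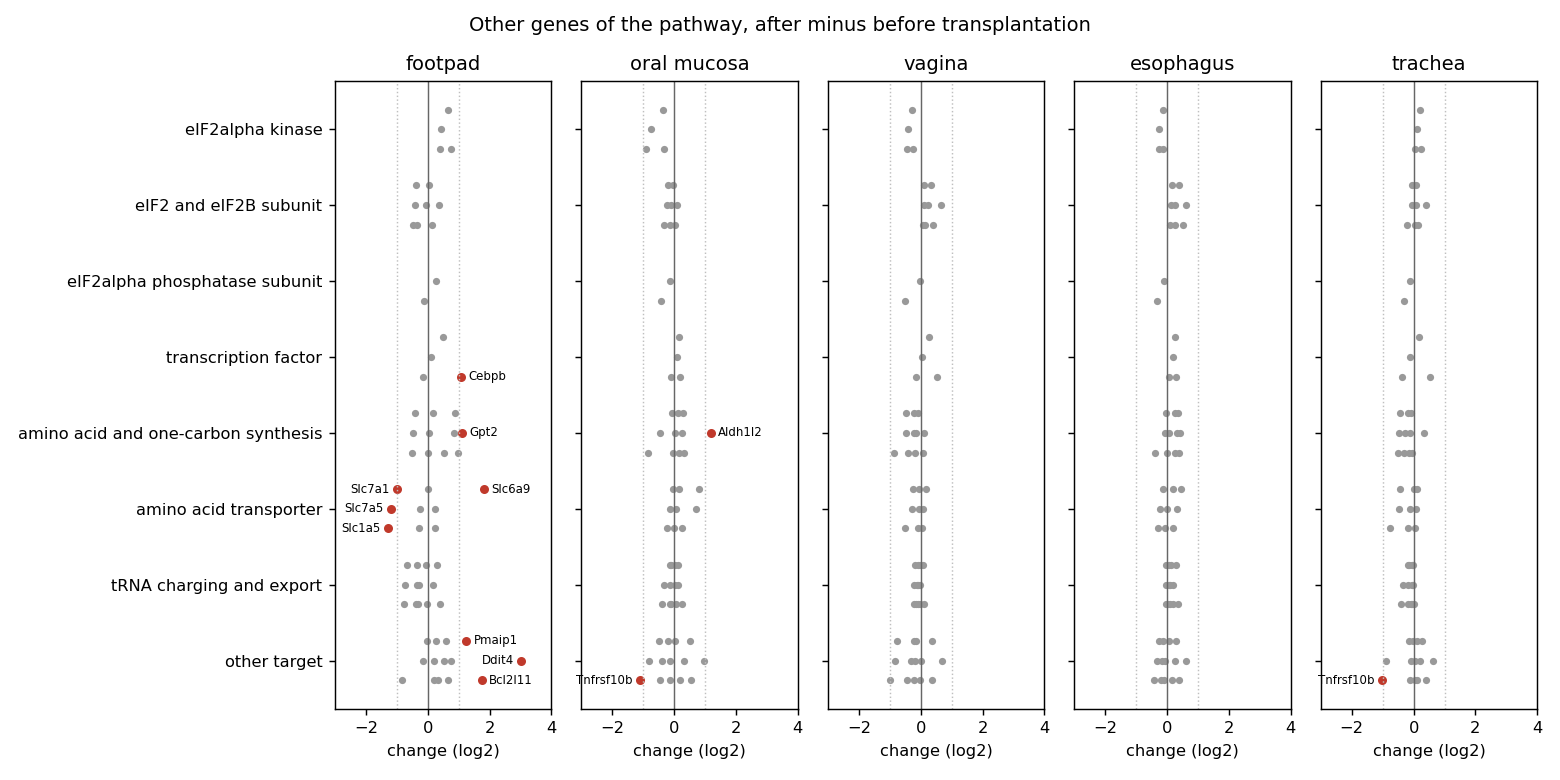
Change of the 65 other pathway genes, after minus before transplantation on the log2 scale, with 1 panel a tissue and 1 row a role; red points with names passed the test and grey points did not, vertical offsets within a row only separate points, and dotted lines mark 2-fold. Ddit4 (3.03), Slc6a9 (1.83) and Bcl2l11 (1.74) stand out in footpad, and Aldh1l2 (1.18) and Tnfrsf10b are the named points elsewhere.

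Other stress programmes were set beside the pathway in footpad, where the 3 leading members had their highest levels. The counts stand beside 4.28% of all probe sets higher and 2.64% lower in this tissue, and a list of 12 to 21 genes gives a coarse share. Of 20 immediate early genes 10 rose and 1 fell, with a median of 1.01. Nr4a1, an orphan nuclear receptor of this class, was 9.66 and 9.77 after and 6.05 and 6.17 before transplantation, and its relative Nr4a2 rose by 3.32. Of 15 p53 targets 4 rose (26.7%) and 0 fell, while the median of the list was 0.06. They were Sesn1 (2.56), an inhibitor of mTORC1, Tp53inp1 (1.97), Gadd45a (1.45) and Pmaip1, which is on the pathway list too. Of 21 endoplasmic reticulum chaperone and unfolded protein response genes 0 rose and 3 fell (14.3%), the chaperones Hyou1 (-1.20) and Dnajb11 (-1.17) and Creld2 (-1.12), with a median of -0.30. Of 12 heat shock genes 1 passed each way, Hspb1 (1.52) and Hsph1 (-1.28). Of 12 NRF2 targets, genes of the oxidant response, Nqo1 (2.88) and Gsr (1.14) rose and Hmox1 fell (-1.76).

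The same lists were counted in the other tissues, beside the shares of all probe sets given above for each, and the tissues were not tested against each other. Immediate early genes fell in vagina (3, led by Dusp1 at -1.85) and oral mucosa (Fos, -1.49), 3 fell and 1 rose in esophagus, and 0 passed in trachea. Of the chaperone list, 1 gene rose in vagina and 1 in esophagus, Sec61b of the translocation channel in both (1.10 and 1.11), and 0 passed in oral mucosa and trachea. Of the NRF2 targets, Hmox1 fell in vagina (-1.05, adjusted p = 2.59e-05) and Nqo1 rose in trachea, and 0 passed in oral mucosa and esophagus. Beside the Ddit3 changes in these tissues, the median change of the chaperone list was 0.35 in oral mucosa, 0.25 in vagina, 0.17 in esophagus and -0.16 in trachea.

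**Figure D4:**
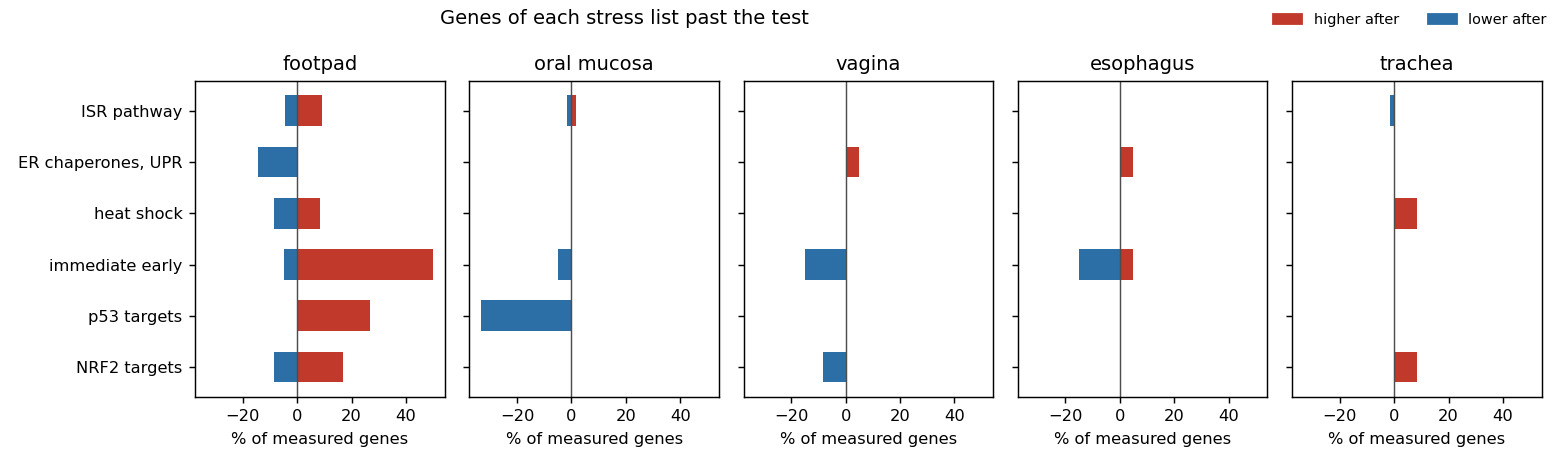
Share of the measured genes of each stress list that passed the test, in percent, to the right for genes higher after transplantation (red) and to the left for lower ones (blue), with 1 panel a tissue. In footpad 10 of 20 immediate early genes were higher and 3 of 21 chaperone genes lower.

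Genes whose pattern was most like that of each member were sought among 3386 genes with a range of at least 2-fold over the 10 group means, by Pearson's r over these means. Nearest to Ddit3 were Mpc2, a subunit of the mitochondrial pyruvate carrier (0.94), Gstm5 (0.92) and Ifi27 (0.91), and these were at 0.89, 0.80 and 0.82 over the 8 groups without footpad. Nearest to Atf3 were Papss1 (0.97), Pnpla3 (0.96) and Dynlt2b (0.96), and to Nupr1 Sftpc (0.96), Tor3a (0.95) and Tgfbi (0.94). Nearest to Asns were Tmprss11b (0.93), Bbs5 (0.93) and Klhl5 (0.91). Nearest to Trib3 were Rflnb (0.85), Nup62 (0.85) and Chac1 (0.82), whose promoter is printed above. Chac1, like Trib3, was highest in esophagus, at 8.35 and 8.39 after and 8.09 and 8.16 before transplantation. These r values, the highest of so many over 10 points, are a description of the pattern.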

How the data were processed

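RNA of 5 epithelia, before and after transplantation, was measured on 20 Rat Gene ST arrays, 2 per group. The deposited values are log2 intensities that the authors made by RMA in Affymetrix Expression Console; no version of either was found in the labels or methods. RMA background-corrects, quantile-normalizes and summarises probes, so that shifts common to a whole array are removed and dim genes are compressed. Arrays have no read depth, and 2 arrays a group limit the precision.

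Of 29215 probe sets, 15310 had 1 symbol in the platform annotation, 323 several and 13582 none; 15279 gene IDs were found in the RefSeq GRCr8 table and 0 symbols changed. The limma package, which the study names, was used (limma 3.58.1, R 4.3.3) with a model chosen here, not stated by the study: 10 group means over all 20 arrays, 10 residual and 3.64 prior degrees of freedom, moderated by eBayes. A call needed a Benjamini-Hochberg adjusted p under 0.05 over all probe sets and a fold over 2. Tissues were compared by an F test over 4 group means, and responses by differences of changes. The fit was tested on simulated data. Named genes were the members, up to 4 called genes per list and tissue with the largest change, Atf4, Ppp1r15a, Chac1, Sesn2 and Ddit4, and the 3 most alike genes per member; Pmaip1, Gpt2, Cebpb, Slc7a5, Slc7a1, the other transporters, kinases and enzymes of the pathway and the vagina and esophagus chaperones were added after their values were seen. The members and lists were chosen with earlier results of these data known.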

Additional observations from a re-analysis of the deposited data

Results flagged for a closer look

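The Atf3 response of oral mucosa differed from the mean response of the other 3 tissues apart from footpad by -1.10 on the log2 scale, and that of trachea by 1.23, both by a test of the difference itself (limma, adjusted p = 0.000571 and 0.000284). Both arrays after transplantation lay below both arrays before in oral mucosa, and above them in trachea. The fibroblast list fell in trachea (6 of 12 genes) and not in oral mucosa (1 of 12 higher, 0 lower), and its part in the difference was not tested.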

How the results depend on the processing

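Outside footpad the 20 changes of the 5 genes kept their side of the threshold in several settings. These were without the 40% dimmest probe sets, with a variance trend, with only the arrays compared, and without the footpad arrays. The last setting was chosen after seeing the data. A model of group means leaves the size and direction of every change the same in these settings. Only the adjusted p could move, so they are no check of direction or fold. In footpad only the size of the change was followed, so these settings check nothing there. Each of the 5 genes had 1 probe set, so that taking the mean of all probe sets of a symbol could not change its values. With a replicate block within tissue the 20 changes outside footpad kept their side too (Ddit3 in vagina 1.17). The block is balanced over the stages, so it also leaves the size and direction of each change the same. Same-numbered arrays deviated together at -0.15 to 0.03, so that the numbers were not taken as pairs. With arrays centered on their median, which moved the median of oral mucosa by -0.14 and its calls to 349 higher and 828 lower, against 438 and 628, 2 members passed in oral mucosa, and 2 pathway genes fell there and 1 in vagina. Without the fold threshold the members past the test were 4 in oral mucosa, 3 in vagina, 4 in esophagus and 3 in trachea; 4 differed among tissues before transplantation, and 5 differences of response passed. Pathway genes then numbered 10 higher and 14 lower in oral mucosa, 5 and 15 in vagina, 12 and 3 in esophagus, 26 and 20 in footpad, 5 and 13 in trachea, and 26 and 18 in footpad against the other tissues. The share of all probe sets past the test without the fold is not given, so nothing is read from these counts of members and pathway genes. With each replicate left out in turn, 96 of 100 changes were the same. In footpad the same meant a shift within the spread of the duplicates, which leaving out 1 of 2 arrays cannot exceed. The footpad changes in this count are therefore no check. Asns in esophagus ranged from -0.051 to 0.027 and turned positive, at 0.027 without the first culture before and 0.016 without the first after transplantation; Ddit3 in esophagus passed at 1.01 and Nupr1 there failed at 0.99. The called members ranged from 0 to 2 in esophagus (2 without its first and 0 without its second culture before transplantation), and the differences of response from 1 to 2 (1 without the first oral mucosa culture after transplantation). Pathway genes ranged from 1 to 2 higher in oral mucosa (2 without its second culture after or either culture before transplantation), 0 to 1 lower there (0 without its first culture before), 0 to 1 lower in vagina (1 without its second culture after or either culture before), and 0 to 1 lower in trachea (0 without the first culture of either stage). The cause of these shifts was not tested.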

Other observations

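Of the 15 p53 targets, 4 of which rose in footpad, 5 fell (33.3%) and 0 rose in oral mucosa. Over all probe sets 4.28% were higher in footpad, and 2.15% lower and 1.5% higher in oral mucosa. Mdm2, the ubiquitin ligase that limits p53, was 9.62 and 9.77 after and 11.35 and 11.30 before transplantation (-1.62, adjusted p = 1.55e-08), and Zmat3, an RNA-binding protein, fell by 1.64 on the log2 scale. Fas, a death receptor (-1.36), and Cdkn1a, the p21 inhibitor of cyclin-dependent kinases (-1.16), fell as well. In vagina, esophagus and trachea 0 of the 15 passed in either direction. In trachea, Nqo1 rose by 1.78, with 10.82 and 10.74 after and 9.06 and 8.94 before transplantation, and Hspb1 rose by 1.20.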
